A study of Mus musculus with 6 samples.

Results

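A set of 10 genes that mark or drive the switch between epithelial and mesenchymal cell states were followed here in sorted cells that had been made from mouse embryonic stem (ES) cells. They were taken by name from the deposited array table: the 4 epithelial genes Epcam, Esrp1, Esrp2 and Grhl2, the transcription factor genes Snai1, Snai2, Zeb1, Zeb2 and Twist1, and the filament gene Vim. Each of the 10 lies on 1 row of the table with a single gene symbol, among 19938 genes measured in all. The ES cells were of the W4/129S6 background and carried the reporter Nkx2-1GFP, in which green fluorescent protein is knocked in at the gene of Nkx2-1, a homeodomain factor of lung, thyroid and ventral forebrain. After 14 days of differentiation, GFP+ cells (genotype label Nkx2-1GFP+, here Nkx2-1 high, 3 samples) and GFP- cells (Nkx2-1GFP-, here Nkx2-1 low, 3 samples) were sorted from cultures of that reporter line. Both groups therefore share the reporter allele, the background and the time. The GFP- fraction is defined only by the lack of reporter signal and can hold many cell types. The study sought lung and thyroid progenitors, and the comparison asks whether the GFP+ cells sat elsewhere than the GFP- cells on the epithelial-mesenchymal scale.

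Epithelial cells hold together through junctions and adhesion proteins, and mesenchymal cells are separate, motile and rich in matrix and vimentin filaments. In the embryo, endoderm forms epithelia such as those of the lung bud and thyroid, while neural crest and mesoderm leave epithelia and become mesenchyme. The Snai and Zeb zinc-finger proteins repress epithelial genes by binding E-box sequences, Twist1 is a basic helix-loop-helix factor of mesenchyme and neural crest, and Grhl2, Esrp1 and Esrp2 keep the epithelial program of transcription and splicing. The microRNAs of the miR-200 family and the Zeb factors repress each other.

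The E-box that the Snai and Zeb proteins bind reads CACCTG on one strand and CAGGTG on the other. Both spellings were searched in the RefSeq promoter windows of GRCm38.p6, which run from 250 bases before to 50 bases after a start site. Of the 10 genes, 5 have windows there: Epcam, Snai1, Twist1, Vim and Zeb2. The Epcam and Snai1 windows are shown because they hold the motif, given in capitals. The Epcam window (chr17:87635729-87636028, plus strand) has 2 copies, starting 187 and 19 bases before the start site. The Snai1 window (chr2:167537945-167538244, plus strand) has 1, starting 126 bases before it.
Epcam: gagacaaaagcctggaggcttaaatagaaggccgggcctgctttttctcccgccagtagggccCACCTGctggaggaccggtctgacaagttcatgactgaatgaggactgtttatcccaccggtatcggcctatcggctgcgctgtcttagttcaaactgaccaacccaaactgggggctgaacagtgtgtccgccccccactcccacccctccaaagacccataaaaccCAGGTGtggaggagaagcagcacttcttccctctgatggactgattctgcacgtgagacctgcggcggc
Snai1: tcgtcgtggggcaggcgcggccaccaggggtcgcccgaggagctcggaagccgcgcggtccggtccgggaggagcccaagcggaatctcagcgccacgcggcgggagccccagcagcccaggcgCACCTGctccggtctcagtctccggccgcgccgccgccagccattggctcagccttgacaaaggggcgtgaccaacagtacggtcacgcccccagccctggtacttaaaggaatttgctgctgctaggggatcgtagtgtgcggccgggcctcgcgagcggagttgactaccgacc
Of 32851 promoter windows of this length, 20.2% hold at least 1 copy and 2.88% at least 2. A match says only that the letters are present.

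The miR-200 family is shown because its seeds, bases 2 to 8 in capitals, define how it pairs with Zeb1 and Zeb2 transcripts. The mature sequences are from RefSeq (GRCm38.p6). The first pair shares the seed AACACUG and the other 3 share AAUACUG.
mmu-miR-141-3p: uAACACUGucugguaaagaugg
mmu-miR-200a-3p: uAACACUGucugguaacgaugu
mmu-miR-200b-3p: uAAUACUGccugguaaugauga
mmu-miR-200c-3p: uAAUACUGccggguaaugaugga
mmu-miR-429-3p: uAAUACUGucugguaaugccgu

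Values are log2 expression from the authors' RMA normalization, and array medians ran from 4.98 to 5.06. A gene is called above background where a group mean exceeds 4.27, the 95th percentile of 1210 rows of olfactory and vomeronasal receptor genes. The groups were compared with limma across all genes, with Benjamini-Hochberg adjustment and a threshold of 0.05. Differences are Nkx2-1 high minus Nkx2-1 low, ± the standard error (SE), and "rose" and "fell" mean past that threshold. Nkx2-1, the gene the sort was based on, stood at 7.62, 7.77 and 7.77 in the Nkx2-1 high samples and at 5.42, 5.23 and 5.34 in the Nkx2-1 low samples, as the labels require. Over all genes the median difference was -0.01. In a principal component analysis the samples numbered 3 of both groups stood apart from those numbered 1 on the second component, which held 19.7% of the variance. For that reason member counts are given with and without both samples numbered 3.

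Of the 10 genes, 4 fell in Nkx2-1 high (Epcam, Twist1, Snai2 and Snai1) and 1 rose (Zeb2). Over all genes 6.0% passed the test, 3.09% lower and 2.90% higher. The falls took in an epithelial gene and 3 mesenchymal transcription factor genes at once, so the called genes did not all point to one pole. The epithelial pole was barely measurable. Esrp1 and Grhl2 were not above background, Esrp2 sat at the background level, and so did Epcam in Nkx2-1 high. Of the 4 epithelial genes 1 fell and 0 rose (0 at an unadjusted p under 0.05). Of the 5 transcription factor genes and Vim, 3 fell and 1 rose. The median difference over the 10 was -0.11. Without both samples numbered 3, 3 fell and 1 rose, and Snai1 was the one lost (limma adjusted p = 0.0892). The number that fell was 2 without Nkx2-1 high replicate 2 or 3 and without Nkx2-1 low replicate 1 or 2. The number that rose was 0 without Nkx2-1 high replicate 1 or 2 and without Nkx2-1 low replicate 2. The groups did not overlap for 7 of the 10 genes, against 24.7% of all genes. With 3 samples a group, two-sided exact permutation cannot reach a p under 0.1, and it gave 0.1 for each of those 7.

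**Figure D1:**
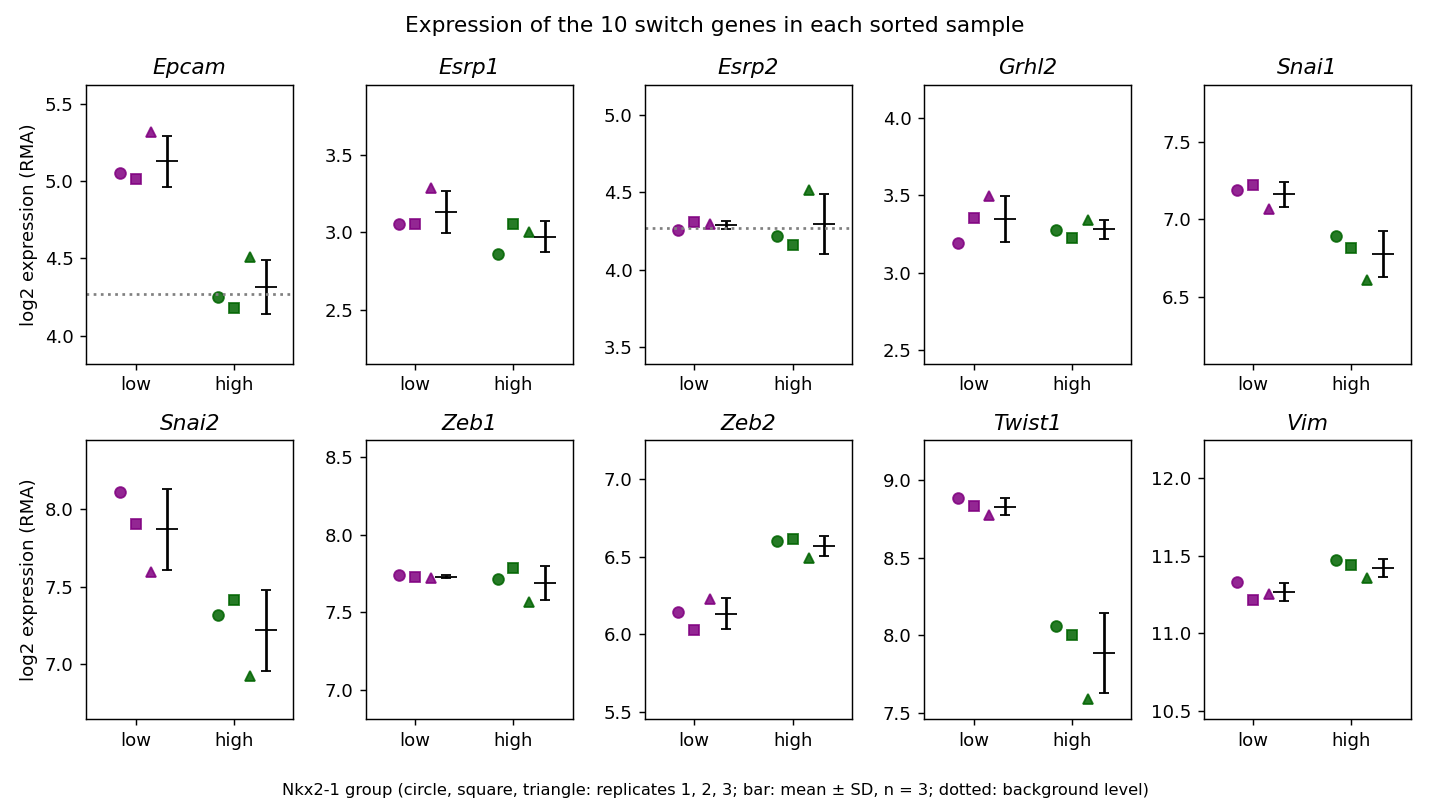
Log2 expression of each of the 10 genes (vertical axis, every panel spanning the same number of log2 units) in the Nkx2-1 low and Nkx2-1 high samples; circles, squares and triangles are replicates 1, 2 and 3, black bars are the mean ± SD (n = 3), and the dotted line is the background level of 4.27. The groups separate for Epcam, Twist1, Snai1, Snai2 and Zeb2, and by a narrow gap for Vim and Esrp1, which did not pass the test. Zeb1 overlaps between 7.57 and 7.79.

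Twist1 had the largest difference of the 10. Its levels were 8.06, 8.003 and 7.59 in Nkx2-1 high and 8.88, 8.83 and 8.77 in Nkx2-1 low. Every Nkx2-1 high sample lay below every Nkx2-1 low sample, and Nkx2-1 high replicate 3 was the lowest of all 6. The means were 7.88 ± 0.26 (SD, n = 3) and 8.83 ± 0.05 (SD, n = 3). This is a fall of 1.93-fold (log2 difference -0.95 ± 0.12, limma adjusted p = 0.00185), with a 95% interval from -1.22 to -0.67. Leaving out any 1 sample kept the call (adjusted p at most 0.0132). Both groups were far above background, so Twist1 was still expressed in Nkx2-1 high.

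Snai2, the gene of Slug, is a neural crest factor. It stood at 7.32, 7.41 and 6.92 in Nkx2-1 high and at 8.11, 7.91 and 7.59 in Nkx2-1 low. The groups did not overlap, but in both groups replicate 3 was clearly the lowest, and the nearest samples of the groups were 7.41 and 7.59. Snai2 was 1.57-fold lower in Nkx2-1 high (-0.65 ± 0.15, limma adjusted p = 0.0373; means 7.22 ± 0.26 and 7.87 ± 0.26, SD, n = 3). Of the 6 fits without 1 sample, only that without Nkx2-1 low replicate 3 kept the call (adjusted p = 0.0187). The adjusted p was 0.0773, 0.0538 and 0.0876 without Nkx2-1 high replicates 1, 2 and 3, and 0.122 and 0.117 without Nkx2-1 low replicates 1 and 2. With all 6 samples and the replicate number as a block, the limma adjusted p was 0.0035 (SE 0.0855). The call was lost with every row in 1 fit and in an ordinary test per gene.

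Snai1, the gene of Snail and the closest relative of Snai2 here, moved the same way by less. It stood at 6.90, 6.82 and 6.61 in Nkx2-1 high and at 7.19, 7.22 and 7.07 in Nkx2-1 low, again without overlap and with replicate 3 lowest in each group. The fall was 1.31-fold (-0.39 ± 0.09, limma adjusted p = 0.0420; means 6.78 ± 0.15 and 7.16 ± 0.08, SD, n = 3). The call was kept without Nkx2-1 high replicate 1 (adjusted p = 0.0498) and lost in the other fits, at 0.108 and 0.0975 without Nkx2-1 high replicates 2 and 3, and at 0.116, 0.145 and 0.0589 without Nkx2-1 low replicates 1, 2 and 3. The log2 ratio of the Snai2 to the Snai1 signal within an array averaged 0.44 in Nkx2-1 high and 0.71 in Nkx2-1 low, a difference of -0.27 (exact two-sided permutation p = 0.2, where 3 against 3 cannot go under 0.1). Only changes of such a ratio can be read, since its level depends on the probes.

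Zeb2, a repressor of E-cadherin that neural and endothelial cells also use, went the other way. Its levels were 6.60, 6.62 and 6.49 in Nkx2-1 high and 6.15, 6.03 and 6.23 in Nkx2-1 low. The lowest Nkx2-1 high sample was higher than any Nkx2-1 low sample. The rise was 1.35-fold (0.44 ± 0.08, limma adjusted p = 0.0144; means 6.57 ± 0.07 and 6.13 ± 0.10, SD, n = 3). The call was lost when Nkx2-1 high replicate 1 (adjusted p = 0.0539), Nkx2-1 high replicate 2 (0.0705) or Nkx2-1 low replicate 2 (0.0620) was left out.

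Zeb1, which shares the DNA-binding fingers of Zeb2, did not pass. It stood at 7.71, 7.79 and 7.57 in Nkx2-1 high and at 7.74, 7.73 and 7.72 in Nkx2-1 low, so the Nkx2-1 low samples sat inside the range of the others. The difference was -0.04 ± 0.08 (limma adjusted p = 0.845), with a 95% interval from -0.22 to 0.14. Within an array, the log2 ratio of the Zeb2 to the Zeb1 signal was -1.11, -1.17 and -1.07 in Nkx2-1 high and -1.59, -1.70 and -1.49 in Nkx2-1 low. The ratio was thus higher in every Nkx2-1 high sample, by 0.48 on average (exact two-sided permutation p = 0.1, the smallest possible). This and the Snai pair were the 2 ratios computed.

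**Figure D2:**
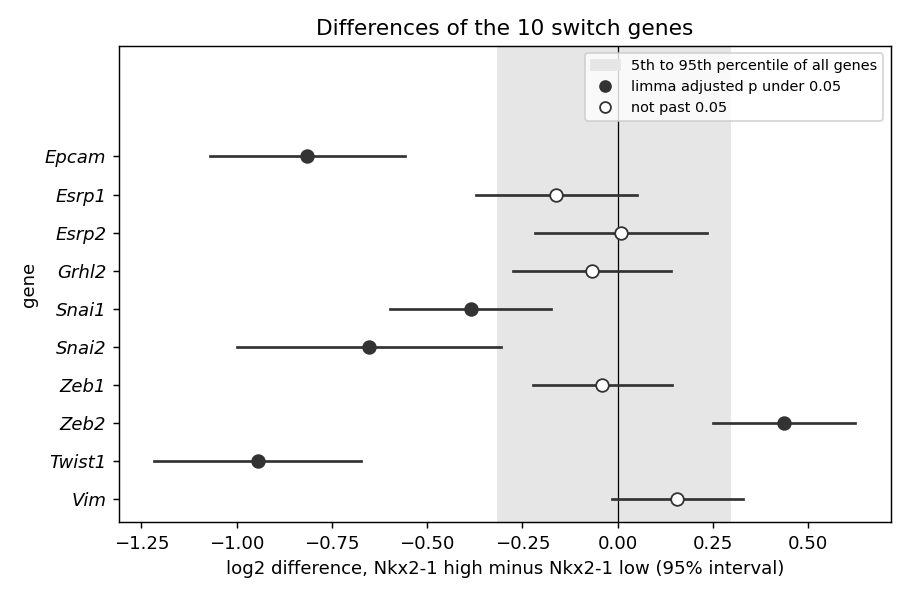
Log2 difference (Nkx2-1 high minus Nkx2-1 low, horizontal axis) of each gene with its 95% interval from limma; filled circles passed an adjusted p of 0.05, open circles did not, and the grey band holds the 5th to 95th percentile of all genes (-0.31 to 0.29). Epcam, Twist1, Snai1 and Snai2 lie left of the band, Zeb2 lies right of it, and Esrp1, Esrp2, Grhl2, Zeb1 and Vim lie inside it.

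Epcam, the adhesion molecule whose promoter with 2 E-boxes is printed above, was the epithelial gene that fell. It stood at 4.25, 4.18 and 4.51 in Nkx2-1 high and at 5.05, 5.01 and 5.32 in Nkx2-1 low. The groups were well separated, and in each group replicate 3 was the highest, the reverse of Twist1 and the Snai genes. The fall was 1.76-fold (-0.81 ± 0.11, limma adjusted p = 0.00300; means 4.31 ± 0.17 and 5.13 ± 0.17, SD, n = 3), and the call survived the removal of any 1 sample (adjusted p at most 0.0181). The Nkx2-1 high mean lies next to the background level of 4.27, and at the 99th percentile of the receptor rows, 5.35, neither group would count as above background.

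The other epithelial genes gave little signal. Grhl2, which activates Cdh1 and other junction genes, stood at 3.27, 3.22 and 3.34 in Nkx2-1 high and at 3.19, 3.35 and 3.49 in Nkx2-1 low, not above background in either group (limma adjusted p = 0.768). Esrp1, a splicing factor of epithelia, stood at 2.86, 3.05 and 3.002 in Nkx2-1 high and at 3.06, 3.06 and 3.29 in Nkx2-1 low, also not above background (adjusted p = 0.411). The Esrp1 groups did not overlap but nearly touched, at 3.0537 and 3.0554. Its relative Esrp2 sat at the background level, with 4.22, 4.16 and 4.52 in Nkx2-1 high and 4.26, 4.31 and 4.30 in Nkx2-1 low. Its difference was 0.01 ± 0.10 (adjusted p = 0.980), with a 95% interval from -0.22 to 0.24. At such signals these arrays can miss a change in either direction, so the values do not show equal expression.

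Vim, the vimentin gene, stood at 11.47, 11.44 and 11.36 in Nkx2-1 high and at 11.33, 11.21 and 11.26 in Nkx2-1 low, far above background throughout. The groups did not overlap, though Nkx2-1 high replicate 3 and Nkx2-1 low replicate 1 nearly touched. The difference of 0.16 ± 0.08 did not pass (limma adjusted p = 0.315), and its 95% interval ran from -0.02 to 0.33. That interval lies wholly above those of Twist1, Snai1 and Snai2, whose upper ends were -0.67, -0.18 and -0.31.

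Replicates varied along the same gene groups. Nkx2-1 high replicate 3 was the lowest of its group for 6 of the 6 mesenchymal genes (Snai1, Snai2, Zeb1, Zeb2, Twist1 and Vim) and the highest for 3 of the 4 epithelial genes, all but Esrp1. Over all genes, that sample was the lowest of its group for 35.2% and the highest for 38.8%. Nkx2-1 low replicate 3 was the lowest for 4 of the 6, all but Zeb2 and Vim, and the highest for 3 of the 4, all but Esrp2, against 31.5% and 35.6% of all genes. This arrangement was noticed after the values were seen and was given no test. The mean log2 level of 12 mesenchyme markers was 7.14 in Nkx2-1 high replicate 3 against 7.49 and 7.40 in its group, and 7.86 in Nkx2-1 low replicate 3 against 8.17 and 8.06. That of 11 endoderm markers was 5.16 against 4.89 and 4.86, and 5.22 against 4.94 and 4.99. In both groups the sample with the lower mesenchyme level thus had the higher endoderm level. Lists of other kinds shifted too. The mean of 9 microRNA genes, 7 of them not above background, was 3.007 in Nkx2-1 high replicate 3 against 2.932 and 2.95. That of 19 corepressor and stability genes was 7.24 against 7.285 and 7.277. The 14 endothelial markers, of low signal, were lower too (4.81 against 4.90 and 4.86). The same directions held in Nkx2-1 low replicate 3. The 6 mesenchymal genes had higher signals than the 4 epithelial ones. The parts of signal level and of cell makeup in the spread were not tested. The 12 mesenchyme markers do not include any of the 10 genes.

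**Figure D3:**
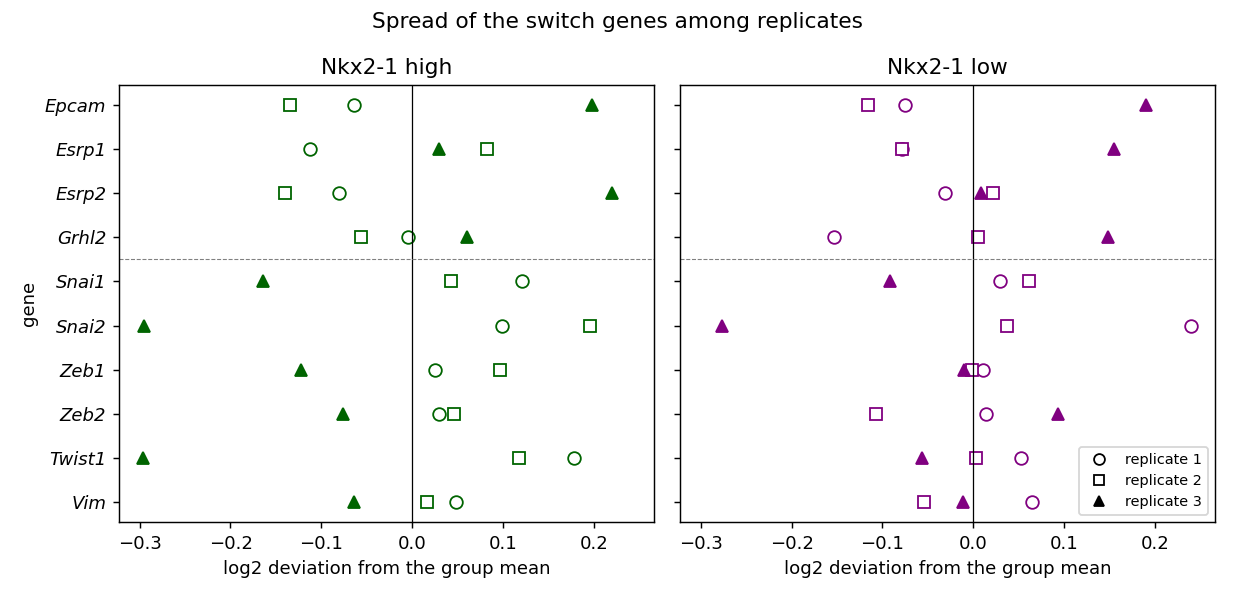
Deviation of each sample from its group mean (log2 units, horizontal axis) for each gene, with Nkx2-1 high on the left and Nkx2-1 low on the right; filled triangles are replicate 3, and the dashed line divides epithelial from mesenchymal genes. In Nkx2-1 high, replicate 3 lies right of 0 for the epithelial genes (0.20 for Epcam) and left of 0 for the mesenchymal ones (-0.30 for Twist1 and for Snai2).

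In bulk samples, fewer cells of a type and less RNA per cell cannot be told apart. Markers of several cell types moved with the sort. Of 12 mesenchyme markers 6 fell and 1 rose (median -0.55), and their mean log2 level ran from 7.14 to 7.49 in Nkx2-1 high and from 7.86 to 8.17 in Nkx2-1 low. Postn (-2.34 ± 0.16), Pdgfra (-2.00 ± 0.17), Prrx1 (-1.90 ± 0.14) and Col1a2 (-1.50 ± 0.08) had the largest changes. The marker that rose was Meox1 (1.26 ± 0.24, limma adjusted p = 0.0138, and 0.0601 without Nkx2-1 high replicate 2). The 5 that did not pass were Pdgfrb (0.04), Twist2 (0.10), Dcn (0.16), Thy1 (-0.04) and Lum (-0.74). Of 11 neural crest markers 3 fell and 0 rose (0 at an unadjusted p under 0.05; median -0.24). These were Crabp1 (-1.92 ± 0.12), Msx1 (-1.59 ± 0.11) and Tfap2b, at least 1.38-fold lower. Of the 11 differences 8 were negative and 3 positive. The positive ones, none past the test, were Sox10 (0.16 ± 0.08), Foxd3 (0.03 ± 0.10) and Ets1 (0.17 ± 0.13). Mean crest levels ran from 5.72 to 5.82 in Nkx2-1 high and from 6.24 to 6.29 in Nkx2-1 low. Twist1 and Snai2, which both tissues express, fell beside these members of the 2 lists, whose part in the result was not tested.

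Of 14 neuron markers 7 fell and 0 rose (0 at an unadjusted p under 0.05; median -0.58), among them Ina (-1.58 ± 0.14), Dcx, at least 2.30-fold lower, Stmn2, at least 1.79-fold lower, and Gap43 (-0.89 ± 0.11). Their mean level ran from 4.57 to 4.84 in Nkx2-1 high and from 5.28 to 5.32 in Nkx2-1 low. Zeb2 rose while these 7 fell. Of 14 endothelial markers 3 rose and 0 fell (1 lower at an unadjusted p under 0.05; median 0.08): Flt4 (1.10 ± 0.08), Tek, at least 1.77-fold higher, and Eng (0.88 ± 0.21, kept only when Nkx2-1 high replicate 3 or Nkx2-1 low replicate 1 was left out, adjusted p up to 0.122). Mean endothelial levels ran from 4.81 to 4.90 in Nkx2-1 high and from 4.55 to 4.65 in Nkx2-1 low, with 8 of the differences positive and 6 negative. The mean of the list and 3 of its markers were thus higher beside Zeb2, and the part of this list in the rise of Zeb2 was not tested. Of the 14, 11 were above background in at least 1 group. The 3 that were not above background were Cdh5, Sox17 and Erg. Of 11 blood markers 0 changed (1 higher at an unadjusted p under 0.05), 9 were not above background, Ptprc among them, and Fcer1g and Klf1 had the largest differences (0.27 ± 0.10 and 0.21 ± 0.10). Mean blood levels ran from 3.61 to 3.67 in Nkx2-1 high and were 3.56 in each Nkx2-1 low sample.

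The endoderm markers gave no call beside Epcam. Of 11 measured 0 rose and 0 fell by limma (at an unadjusted p under 0.05, 1 was higher and 2 were lower; median -0.04), and their levels overlapped, from 4.86 to 5.16 in Nkx2-1 high and from 4.94 to 5.22 in Nkx2-1 low. With array weights 1 was called lower, and with the replicate number as a block 2 were. Foxa1, an endoderm pioneer factor gene, stood at 4.84, 5.52 and 6.01 in Nkx2-1 high and 5.80, 5.70 and 6.09 in Nkx2-1 low, and the tight junction gene Cldn6 differed by -0.40 ± 0.15 (adjusted p = 0.184). Of the 11, 9 were above background in at least 1 group.

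Genes that work with the 10 were followed as lists. Their counts stand beside the shares over all genes, 2.90% higher and 3.09% lower. Of 19 other transition-driving factor genes 4 fell and 1 rose (median -0.03). Besides Prrx1 and Msx1, Prrx2, a homeobox gene of craniofacial and limb mesenchyme, fell by 2.12-fold (-1.09 ± 0.09, limma adjusted p = 0.000163). Hmga2, a chromatin protein gene reported to induce Snai1 and Twist1, rose by 1.54-fold (0.62 ± 0.09, adjusted p = 0.00355). Hmga2 stood at 9.19, 9.33 and 9.04 in Nkx2-1 high and at 8.51, 8.62 and 8.57 in Nkx2-1 low, the opposite direction to Snai1 and Twist1. Twist2, the closest paralog of Twist1, stood at 6.196, 6.09 and 6.27 in Nkx2-1 high and 6.14, 6.11 and 6.003 in Nkx2-1 low. Its groups overlapped and its difference of 0.10 ± 0.08 did not pass (adjusted p = 0.582). Twist2 was singled out after its values were seen.

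Epithelial factors and effectors showed single genes in both directions, where 6.0% of all genes passed the test. Their counts are not read as a result about these lists. Of 18 epithelial factor genes 1 rose, Klf4 (0.65 ± 0.09), and 1 fell, Tfap2c (-2.11 ± 0.21), which is also a gene of trophoblast, germ cells and neural crest precursors (list median -0.02). Singled out after their values were seen, the Grhl2 paralogs Grhl1 and Grhl3 differed by 0.13 ± 0.09 and -0.22 ± 0.12, and neither passed (adjusted p = 0.491 and 0.372). Of 38 junction, polarity, protease and keratin genes 2 rose and 1 fell, with 35 not past the test and 9 not above background (median -0.03). Cdh3, which encodes P-cadherin, rose (0.80 ± 0.13), and so did the plakoglobin gene Jup (0.58 ± 0.12, kept only without Nkx2-1 high replicate 3, adjusted p up to 0.0812). Tmem30b was at least 1.598-fold lower (adjusted p = 0.0131, and 0.0528 without Nkx2-1 low replicate 2). Cdh1, the E-cadherin gene that the Snai and Zeb proteins repress, stood at 4.74, 4.63 and 4.83 in Nkx2-1 high and at 4.93, 5.01 and 5.36 in Nkx2-1 low. Cdh1 was named after its values were seen. Its groups did not overlap, but it did not pass the test (adjusted p = 0.114).

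**Figure D4:**
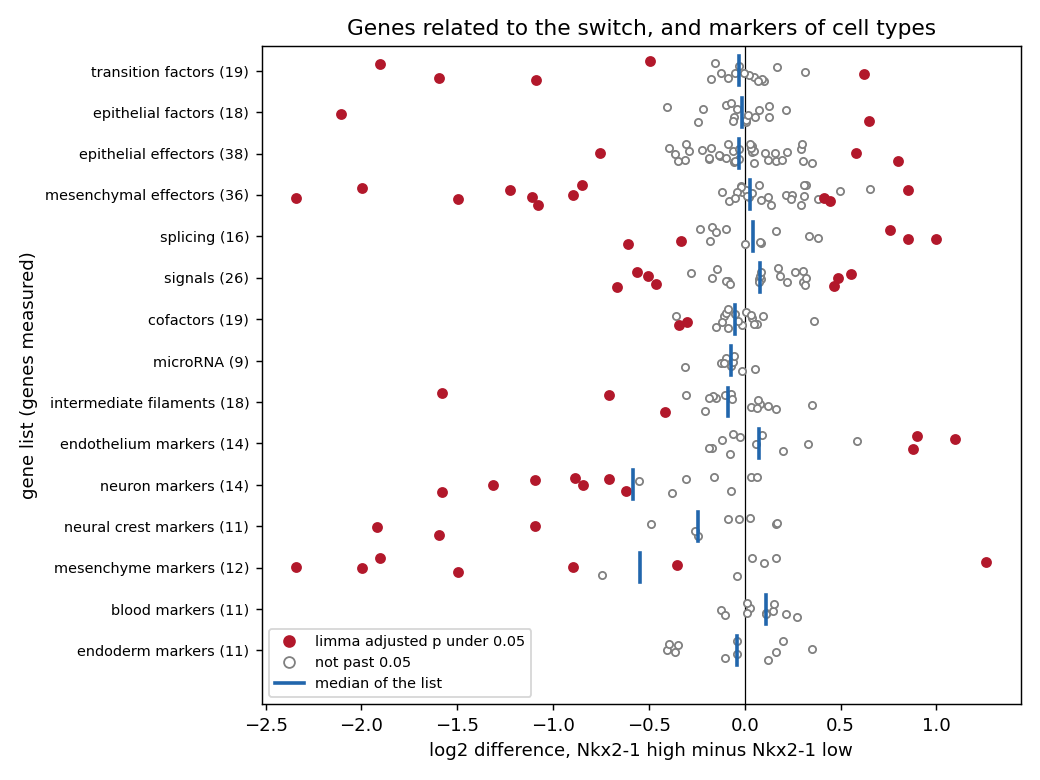
Log2 difference (Nkx2-1 high minus Nkx2-1 low, horizontal axis) of every measured gene in each list, with the number of genes in brackets; red points passed a limma adjusted p of 0.05, open points did not, and blue bars are list medians. The medians of the neuron (-0.58), mesenchyme (-0.55) and neural crest (-0.24) markers lie left of 0, and those of the lists of the switch itself lie between -0.09 and 0.08.

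Of 36 adhesion, matrix and cytoskeletal genes of the mesenchymal state, 8 fell and 3 rose (median 0.03). At an unadjusted p under 0.05, 12 were higher and 8 lower. The number that rose was 6 with cyclic loess or with trend and robust eBayes, 8 with array weights, and from 1 to 6 with 1 sample left out. The number that fell was 8 in each fit with 1 sample left out. Besides Postn, Pdgfra and Col1a2, the tenascin gene Tnc fell (-1.23 ± 0.10, 2.34-fold). The 3 that rose were the adhesion receptor gene Cd44 (0.85 ± 0.11), Col5a2 (0.44 ± 0.09, kept only without Nkx2-1 low replicate 2, adjusted p up to 0.0637) and the actin-linker gene Msn (0.41 ± 0.10, kept only without Nkx2-1 high replicate 3, adjusted p up to 0.158). Mesenchymal effectors were thus split, with falls of several matrix genes beside 25 genes that did not pass. Of 18 other intermediate filament genes, the family of Vim, 3 fell and 0 rose (1 higher at an unadjusted p under 0.05; median -0.09). They were Ina, Nefl, at least 1.55-fold lower, and Nes (-0.41 ± 0.10, kept only without Nkx2-1 high replicate 1, adjusted p up to 0.169), all filaments of neurons or neural progenitors.

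Of 16 genes of RNA-binding regulators that oppose or act with the Esrp splicing factors, and of their targets, 3 rose and 2 fell (median 0.04). Here 1 row stood for each gene, so splice forms were not measured. Rbfox1, a splicing factor of neurons and muscle, rose (0.76 ± 0.13), and of the genes known as Esrp splicing targets Itga6 (1.00 ± 0.09) and Cd44 rose and Fgfr2 fell (-0.61 ± 0.15, kept only without Nkx2-1 high replicate 3, adjusted p up to 0.147). Srsf1 fell by 0.33 ± 0.08 on the log2 scale (adjusted p = 0.0369, and lost whichever sample was left out, at up to 0.113). Of 26 signal genes 3 rose and 4 fell (median 0.08). Smad3 rose (0.47 ± 0.08, limma adjusted p = 0.00847, and at most 0.0433 with any 1 sample left out). Id4 rose (0.49 ± 0.10, kept only when Nkx2-1 high replicate 3 or Nkx2-1 low replicate 1 was left out, adjusted p up to 0.0646). Id2 fell (-0.46 ± 0.10, kept only when Nkx2-1 high replicate 3 or Nkx2-1 low replicate 2 was left out, adjusted p up to 0.0868). The receptor genes Egfr (-0.67 ± 0.09), Notch1 (-0.56 ± 0.09) and Notch2 (-0.51 ± 0.07) fell, and Hgf, a ligand that drives epithelial scattering, passed at levels not above background (0.55 ± 0.14, kept only when Nkx2-1 high replicate 3 or Nkx2-1 low replicate 1 was left out, adjusted p up to 0.167). Of 19 genes of corepressors and stability regulators 2 fell and 0 rose (1 higher at an unadjusted p under 0.05; median -0.05). Ezh2, a histone methyltransferase gene, fell by 0.34 ± 0.07 (kept only without Nkx2-1 low replicate 3, adjusted p up to 0.101), and Fbxo45 fell by 0.30 ± 0.07 (lost whichever sample was left out, at up to 0.122).

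The rows of the miR-200 genes, whose sequences are given above, gave no call. Of 9 microRNA genes measured, 0 rose and 0 fell by limma (at an unadjusted p under 0.05, 0 were higher and 1 was lower; median -0.07), and 7 were not above background. Mir200a stood at 4.04, 4.27 and 4.36 in Nkx2-1 high and at 4.50, 4.46 and 4.64 in Nkx2-1 low. These groups did not overlap, but the difference of -0.31 ± 0.10 did not pass (adjusted p = 0.116). Mir200b differed by -0.12 ± 0.08 at levels not above background. Mir429 shares its row with a second gene and was left out. Such rows were designed on microRNA genes, and no value here measures a mature microRNA.

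For each of the genes that changed, the 3 genes with the closest profile were taken from 13505 genes above background. Likeness is the root mean square difference of the log2 values over the 6 samples after each gene's mean was subtracted. Nearest to Twist1 were Pgm2l1 (0.0408), the collagen receptor gene Ddr2 (0.0683) and the collagen gene Col26a1 (0.0815), with differences of -0.92, -0.85 and -1.002 between the groups. Nearest to Snai2 were Hacd4 (0.0714), the homeobox gene Hoxd10 (0.0832) and Tmem119 (0.0939), and nearest to Snai1 were Smarca1 (0.0267), Orc6 (0.0331) and Spg20 (0.0336). Epcam was closest to Igdcc3 (0.0426), Igfbpl1 (0.0752) and Dclk1 (0.0829). Zeb2 was closest to the transcription factor gene Klf7 (0.0475), Selenom (0.0484) and Aplp2 (0.0529), which were higher in Nkx2-1 high by 0.44, 0.50 and 0.48. A profile of 6 samples in 2 groups is matched by many genes, so these are descriptions only.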

How the data were processed

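Arrays measured 6 sorted samples, 3 per group, described as biological replicates per the labels' protocols, with RNA amplified by WT-Ovation Pico, which can alter relative signals. The authors deposited 1 log2 expression value per row and sample. They used RMA, per the submitters' processing notes, and log2 was inferred from that and from the range. Scan batches and detection calls were not analysed here, and the genome build is not given in the sources used here.

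Of 29011 rows, 21789 had 1 symbol in GEO's platform annotation, 1621 several and 5601 none. The highest-mean row stood for a gene, which gave 19938 genes. limma 3.58.1 in R 4.3.3 (lmFit, eBayes, group as the only term) was run on all of them, and the script was tested on simulated data. There it recovered 39% of 100 changes of 0.5 log2 units and 91% of 100 changes of 1. A gene that did not pass can therefore still differ. With both group means at or under background no fold is given, and with 1 above, the fold against that level is "at least". The members and the 15 related lists (287 entries, some genes in more than 1 list) were chosen with earlier results of these data known. Named are all members, up to 4 called genes per list with the largest change (2 where none was called), the 3 nearest profiles of each called member, and genes said to be chosen later, including those named to complete a count. Deviations of same-numbered samples correlated at 0.181, -0.004 and 0.277 across genes, and those of unlike-numbered samples at -0.269 to 0.146. Samples numbered 1 and 3 matched their own number best, and those numbered 2 did not. The main fit did not pair samples, and a fit with the replicate number as a block is given below. The number of arrays limits the precision. Figures used matplotlib 3.10.9 in Python 3.11.15.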

Additional observations from a re-analysis of the deposited data

How the results depend on the processing

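No called member changed sign under any alternative run, while the uncalled Esrp2, Grhl2 and Zeb1 did in some. The alternatives run were cyclic loess, median-centred arrays, a filter to genes above background, array weights, trend and robust eBayes, an ordinary test per gene, averaged rows of a gene, every row in 1 fit, a replicate block, a threshold of 0.01, the 90th and 99th background percentiles, each sample left out and, chosen after seeing the data, both samples numbered 3 left out. The cause of a lost call was not tested, except that the stricter threshold loses calls by construction.

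With median-centred arrays Snai1 was lost (-0.3859, adjusted p = 0.0573). With every row in 1 fit Snai1 (-0.3863, adjusted p = 0.0590) and Snai2 (-0.6521, adjusted p = 0.0541) were lost, leaving 2 members lower. At 0.01, Snai1 (-0.3863), Snai2 (-0.6521) and Zeb2 (0.4373) were lost, leaving 0 members higher and 2 lower, and 286 genes higher and 221 lower of the 579 and 617. The test per gene called 0 members in either direction (Epcam -0.8144, Snai1 -0.3863, Snai2 -0.6521, Zeb2 0.4373 and Twist1 -0.9454, adjusted p up to 0.268) and 49 genes higher and 40 lower. Without both samples numbered 3, Snai1 was at -0.3500 (adjusted p = 0.0892) and 407 genes were lower.

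Without 1 sample, the difference ran from -0.4466 to -0.3042 for Snai1, from -0.7905 to -0.5047 for Snai2 and from 0.3840 to 0.4837 for Zeb2. Members called ran from 0 to 1 higher and from 2 to 3 lower, and genes called from 340 to 571 higher and from 284 to 515 lower. With the replicate block 1 member rose and 4 fell, with 708 genes higher and 762 lower, and no member's call changed, while 6 mesenchymal effectors were higher in place of 3 and 2 endoderm markers lower in place of 0. The counts of the related lists stayed within 1.5 times their value in 435 cases and moved further in 75. By correlation not every sample matched its own number best. Signal near background limits Epcam, Esrp1, Esrp2 and Grhl2.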
